A study of Mus musculus with 9 samples.

Results

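To describe what still differed from the lean state when mice on a high-fat diet were given the LIFR inhibitor EC359, RNA-seq libraries of 4T1 tumors from the HFD + EC359 group (3 libraries) were compared with those from the LFD group given vehicle (3 libraries). The groups were taken from the library titles, and these 6 libraries are part of a set of 9, whose other 3 came from tumors of HFD-fed mice given vehicle (HFD) and are quoted here for context. All 22609 listed genes were considered, and 13366 had enough counts to be tested. 4T1 is a mouse mammary carcinoma line used as a model of triple-negative breast cancer (TNBC). In every group, 500000 of these cells had been placed in a mammary fat pad of host mice (BALB/c) after 6 weeks on diet, and each diet was continued to the end of the experiment. Fat made up 10% of the calories in the LFD and 60% in the HFD. After tumors had established, EC359 was given intraperitoneally at 5 mg/kg on 5 days of each week, and the LFD and HFD groups received hydroxy propyl cellulose as vehicle. HFD + EC359 and LFD therefore differed in both diet and drug, and the parts of the diet and the drug in a difference between them cannot be told apart from these 6 libraries. The age of the mice was not given in the labels, nor whether the libraries of a group came from separate mice, so the p-values below measure only the spread between libraries, which may be technical. The labels name the tissue as the 4T1 cell line while the titles name tumors. Keratins and Epcam of the carcinoma list were measured in all libraries together with markers of macrophages, fibroblasts and endothelium, so the libraries held RNA of host cells too. Krt7, Krt19 and Cldn7 of the carcinoma list had too few counts to be tested. In such bulk RNA, fewer cells of a type and less RNA per cell cannot be told apart.

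LIF is a cytokine of the IL-6 family. It binds LIFR, which pairs with the shared receptor chain gp130 (gene Il6st) and activates JAK kinases and the transcription factor STAT3, with MAPK and AKT signalling as further branches. STAT3 in turn induces feedback inhibitors such as Socs3, and in carcinomas LIF is known for effects on tumor cells and on the fibroblasts and macrophages around them.

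In HFD + EC359 tumors, antigen presentation genes of MHC class II, many chemokines, complement components, interferon-inducible GTPases and H2B histone genes were higher than in LFD tumors. Most collagens, many keratins, most immediate early genes and many DNA replication genes were lower. A gene was called differentially expressed when its fold change was over 2 and its adjusted p-value under 0.01 (edgeR quasi-likelihood test, Benjamini-Hochberg adjustment over all tested genes), and 680 genes (5.09%) met both. Of these, 489 were higher (3.66% of those tested) and 191 were lower (1.43%) in HFD + EC359. At an adjusted p-value under 0.05 and any fold change, 3900 genes (29.2%) were higher and 3887 (29.1%) were lower, and these shares are the background against which the gene groups are read. The ranges of the groups did not overlap in 8411 genes (62.9%), among them 674 of the 680 called genes. Below, "rose" and "fell" describe the difference of HFD + EC359 from LFD at an adjusted p-value under 0.05 in this test, levels are CPM (counts scaled by library size and TMM) as mean ± SD of 3 libraries, and log2 fold changes are HFD + EC359 minus LFD. A single number in parentheses after a gene is its log2 fold change.

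The libraries held 5085357 to 6509130 counts in LFD and 8043649 to 9751201 in HFD + EC359, and 3 counts in a library corresponded to 0.308 to 0.59 CPM. On a principal component analysis the first and second components held 51.2% and 25.6% of the variance and each group formed a cluster of its own. LFD replicate 1 stood farther from its replicates than any other library, with a mean chi-square per gene of 3.1 and 2.54 against the other LFD libraries, where all other replicate pairs gave 1.36 to 1.57. Without it, 602 genes were called.

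The libraries also differed in a trend with the GC content of genes. Genes were cut by GC content into 4 bins of equal size, and the log2 level of the lowest bin minus that of the highest, centred on the average library, was -0.536, -0.318 and -0.365 in LFD, 0.105, 0.127 and 0.156 in HFD, and 0.275, 0.254 and 0.302 in HFD + EC359. No library of one group reached the range of another, so the trend ran with the comparison. Among tested genes with a GC content up to 45.8% (the lowest bin), 320 genes were called higher and 9 lower, and the median log2 fold change was 0.365. Above 55.4% (the highest bin), 27 were called higher and 102 lower, and the median was -0.3. When a smooth trend with GC content and gene length was removed from each library, those medians became 0.0579 and -0.0169, and 432 genes were called, 314 higher and 118 lower. Of these, 361 were among the 680, each in the same direction, so 319 calls were lost and 71 gained. The part of library preparation in the GC trend and that of the tumors' RNA cannot be told apart here, and counts over gene lists are therefore given as counted and again after its removal, as are genes whose call was lost with it.

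**Figure D1:**
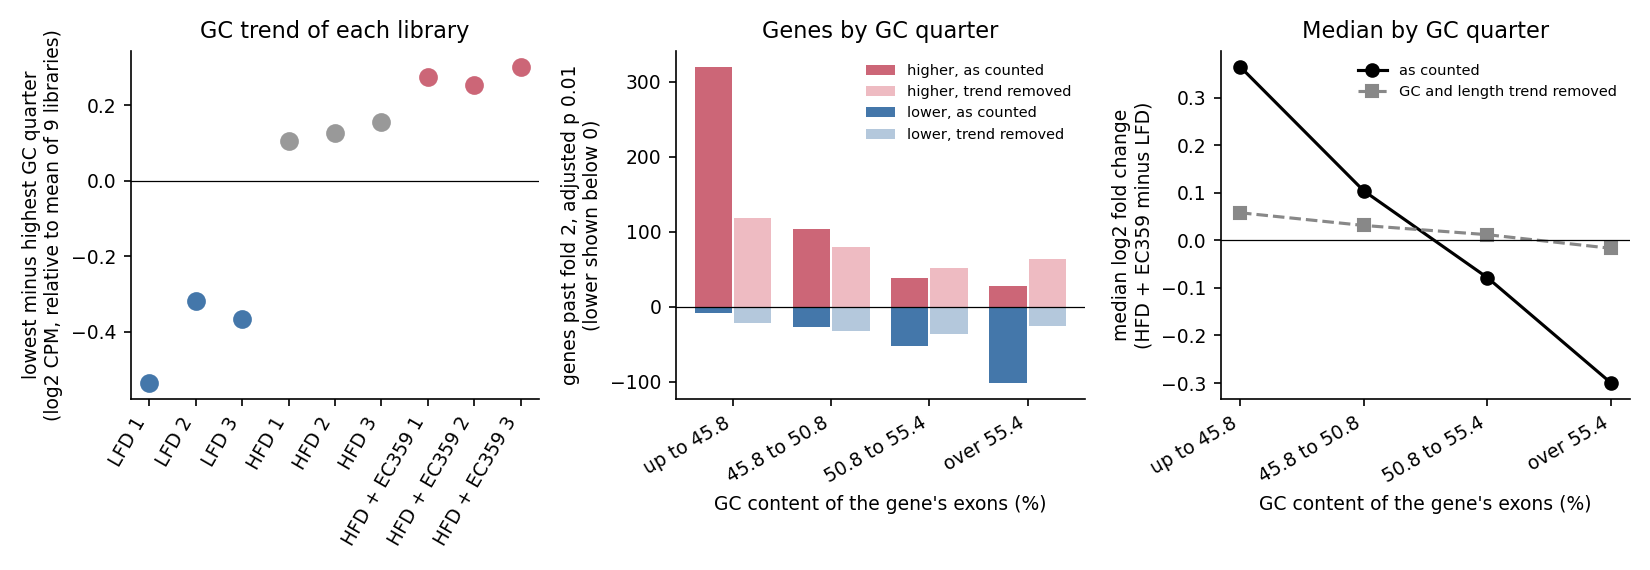
Left, mean log2 level of the lowest minus the highest bin of genes by GC content, with 1 point per library (-0.536 to -0.318 in LFD, 0.105 to 0.156 in HFD, 0.254 to 0.302 in HFD + EC359). Middle and right, number of called genes and median log2 fold change (HFD + EC359 minus LFD) in each bin of GC content in percent, as counted and after correction for GC content and length, where the median runs from 0.365 to -0.3 as counted and from 0.0579 to -0.0169 with the trend removed.

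Among individual genes, the called genes with the largest log2 fold changes, no overlap between the groups and at least 2 CPM in the higher group were led by C6, Gpr34 and Cxcl9 on the higher side. C6, a component of the membrane attack complex of complement (chr15:4677210-4754045, mm9), was at 0.818, 1.41 and 1.23 CPM in the 3 LFD libraries and 19.2, 15.2 and 17.4 CPM in the 3 HFD + EC359 libraries. All 3 HFD + EC359 libraries lay above all LFD libraries, a 14.4-fold difference (log2 fold change 3.85, SE 0.23, edgeR adjusted p = 1.42e-15). Cxcl9, a chemokine induced by interferon-gamma, was at 0.614, 0.942 and 1.59 CPM in LFD and 16.3, 14.2 and 14.9 CPM in HFD + EC359 (log2 fold change 3.81, SE 0.24, edgeR adjusted p = 8.19e-15), again with no overlap. The HFD libraries lay between, at 11.1, 8.91 and 10.1 CPM for C6 and 5.3, 4.85 and 6.41 CPM for Cxcl9. Gpr34, a receptor of macrophages and microglia, had 5 counts over the 3 LFD libraries and 116 over the 3 HFD + EC359 libraries (log2 fold change 3.78, SE 0.50, edgeR adjusted p = 7.85e-08). Cd163l1 (log2 fold change 3.53), the macrophage-associated genes Adamdec1 (3.29) and P2ry12 (2.66), the growth factor Bmp5 (2.87), and F830016B08Rik (3.06), Gm12185 (2.86) and AW112010 (2.80) completed the 10. For 5 of these 10, with 5 to 19 counts over the 3 LFD libraries, the log2 fold change depended on 1 library. It was 2.40 to 3.71 for Bmp5, 2.68 to 3.83 for F830016B08Rik and 2.47 to 3.53 for AW112010 with 1 library left out, each highest without LFD replicate 2, and 3.43 to 4.46 for Gpr34 and 2.52 to 3.55 for Gm12185, highest without LFD replicate 3. With the GC and length trend removed, these 10 stayed called, with log2 fold changes from 2.25 for P2ry12 to 3.79 for Cd163l1.

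On the lower side the list was led by Sec14l4, a lipid-binding protein gene at 7.77, 9.73 and 6.7 CPM in the 3 LFD libraries and 1.46, 0.677 and 1 CPM in the 3 HFD + EC359 libraries (log2 fold change -2.95, SE 0.30, edgeR adjusted p = 4.38e-10). Elovl3, which elongates very long chain fatty acids, was at 6.75, 5.81 and 4.58 CPM in LFD and 0.849, 1.02 and 0.6 CPM in HFD + EC359 (log2 fold change -2.78, SE 0.32, edgeR adjusted p = 4.51e-09). Neither gene overlapped between the groups, and in HFD they were at 0.255 ± 0.252 CPM and 0.261 ± 0.124 CPM. Fa2h, the fatty acid 2-hydroxylase, was at 21 ± 0.442 against 5.09 ± 0.49 CPM (log2 fold change -2.05, SE 0.15, edgeR adjusted p = 1.23e-13). The other 7 were Sspo (log2 fold change -2.51), the transmembrane collagen Col13a1 (-2.34), the carboxylesterase Ces4a (-2.31), the receptor Cntfr (-2.22), the potassium channel Kcnh1 (-2.02), Rassf10 (-1.96) and Tmem56 (-1.93). With 1 library left out Cntfr was at -2.93 to -1.92, farthest from 0 without HFD + EC359 replicate 1, and Col13a1 at -2.96 to -2.02, farthest without HFD + EC359 replicate 3. These 10 also stayed called with the trend removed, from -1.77 for Rassf10 to -2.84 for Sec14l4.

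Of the genes of the pathway that EC359 targets, the ligand Lif was lower and the receptor chains Lifr, Osmr and Il6st were higher in HFD + EC359 than in LFD. Lif was at 20.3, 14.1 and 16 CPM in the 3 LFD libraries and 12, 11.4 and 9.6 CPM in the 3 HFD + EC359 libraries, without overlap (log2 fold change -0.60, SE 0.14, edgeR adjusted p = 4.35e-04). Lifr was at 69.2, 67.8 and 78.4 CPM in LFD and 111, 109 and 99.3 CPM in HFD + EC359, also without overlap (log2 fold change 0.56, SE 0.060, edgeR adjusted p = 9.85e-10). In HFD, Lif was at 18.3 ± 1.77 CPM and Lifr at 81.4 ± 1.58 CPM. Osmr, the oncostatin M receptor chain, rose with a log2 fold change of 0.66 and Il6st with 0.31. With the GC and length trend removed, the log2 fold changes were -0.52 for Lif, 0.32 for Lifr, 0.44 for Osmr and 0.28 for Il6st.

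Across the list of IL-6 family cytokines, receptors and STAT signalling genes, 26 of 28 were tested, of which 4 rose and 11 fell, with a median log2 fold change of -0.11 beside 0.0107 over all tested genes. Among the ligands, Clcf1 (-0.74) and Osm (-0.52) fell with Lif, whereas Ctf1 (-0.31) and Cntf (0.68) did not pass the test. Il11 was near the threshold (log2 fold change -0.52, SE 0.22, edgeR adjusted p = 0.0457) and did not pass with DESeq2, with the 6 libraries alone, with the replicate block or without any 1 LFD or HFD + EC359 replicate. Among the receptors, Cntfr, the ligand-binding chain for CNTF, had the only called change, at 2.66, 2.04 and 1.76 CPM in the 3 LFD libraries and 0.849, 0.226 and 0.3 CPM in the 3 HFD + EC359 libraries (log2 fold change -2.22, SE 0.47, edgeR adjusted p = 1.41e-04). The groups did not overlap, and the 12 counts it had over the 3 HFD + EC359 libraries left its level there imprecise. Il11ra1 fell (-0.58) and Il6ra (0.016) and Il27ra (-0.22) did not pass. Of the signal transducers, Stat3 fell slightly, 357 ± 7.49 against 315 ± 5.76 CPM (log2 fold change -0.18, SE 0.038, edgeR adjusted p = 1.04e-04), as did Jak2 (-0.36) and the phosphatase Ptpn11 (-0.39), while the phosphatase Ptpn6 of blood cells rose (0.45). Jak1 (0.066), Tyk2 (0.071), Stat5a (-0.042), Stat5b (0.055) and the STAT inhibitor Pias3 (-0.039) did not pass. Of the feedback inhibitors, Socs3 was at 286, 253 and 260.3 CPM in the 3 LFD libraries and 157, 173 and 146 CPM in the 3 HFD + EC359 libraries (log2 fold change -0.74, SE 0.052, edgeR adjusted p = 8.95e-14), without overlap. Socs1 fell (-0.47), while Cish (0.12) and Socs2 (-0.36), a member of the LIFR target list below and not of this one, did not pass. The number of genes that rose was 8 with library totals alone as scaling and also 8 with the GC and length trend removed, where 9 fell and neither Socs1 (-0.065) nor Il11 (-0.47) passed. Cish rose with the GC and length trend removed (0.41).

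In a list of 15 LIFR target genes, each of them tested, 4 rose and 9 fell by less than 2-fold, with a median of -0.31. These 15 match the paper's RT-qPCR primers other than those for ribosomal RNA, actin and GAPDH. The paper measured LIFR target genes by RT-qPCR in human TNBC cell lines, so the list was not made for mouse tumors. Junb, an AP-1 subunit, was at 488, 454 and 471 CPM in LFD and 280.1, 292 and 272 CPM in HFD + EC359 (log2 fold change -0.74, SE 0.042, edgeR adjusted p = 3.89e-16). Pim1, a kinase, was at 125, 104 and 117 CPM in LFD and 67.7, 73 and 63.8 CPM in HFD + EC359 (log2 fold change -0.75, SE 0.061, edgeR adjusted p = 2.74e-12), also without overlap. The kinase Akt1 (-0.65), the survival factor Mcl1 (-0.65), the protease inhibitor Timp1 (-0.63), the inhibitor of differentiation Id1 (-0.55), Bcl3 (-0.31), the TNF receptor Tnfrsf1a (-0.30) and Myc (-0.15) fell too. Those that rose included Lifr itself, Id2 (0.56) and Hif1a (0.11), and Bcl2 (0.031) and Socs2 did not pass. After removal of the trend, 2 rose and 7 fell, the median was -0.23, the signs of Bcl3 (0.10) and Hif1a (-0.23) turned, and Id2 (0.24), Tnfrsf1a (-0.078) and Myc (-0.023) did not pass. Hif1a also did not pass as counted with DESeq2 or without LFD replicate 1 or 2 or HFD + EC359 replicate 1 or 3 (0.083 to 0.14 with 1 library left out).

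**Figure D2:**
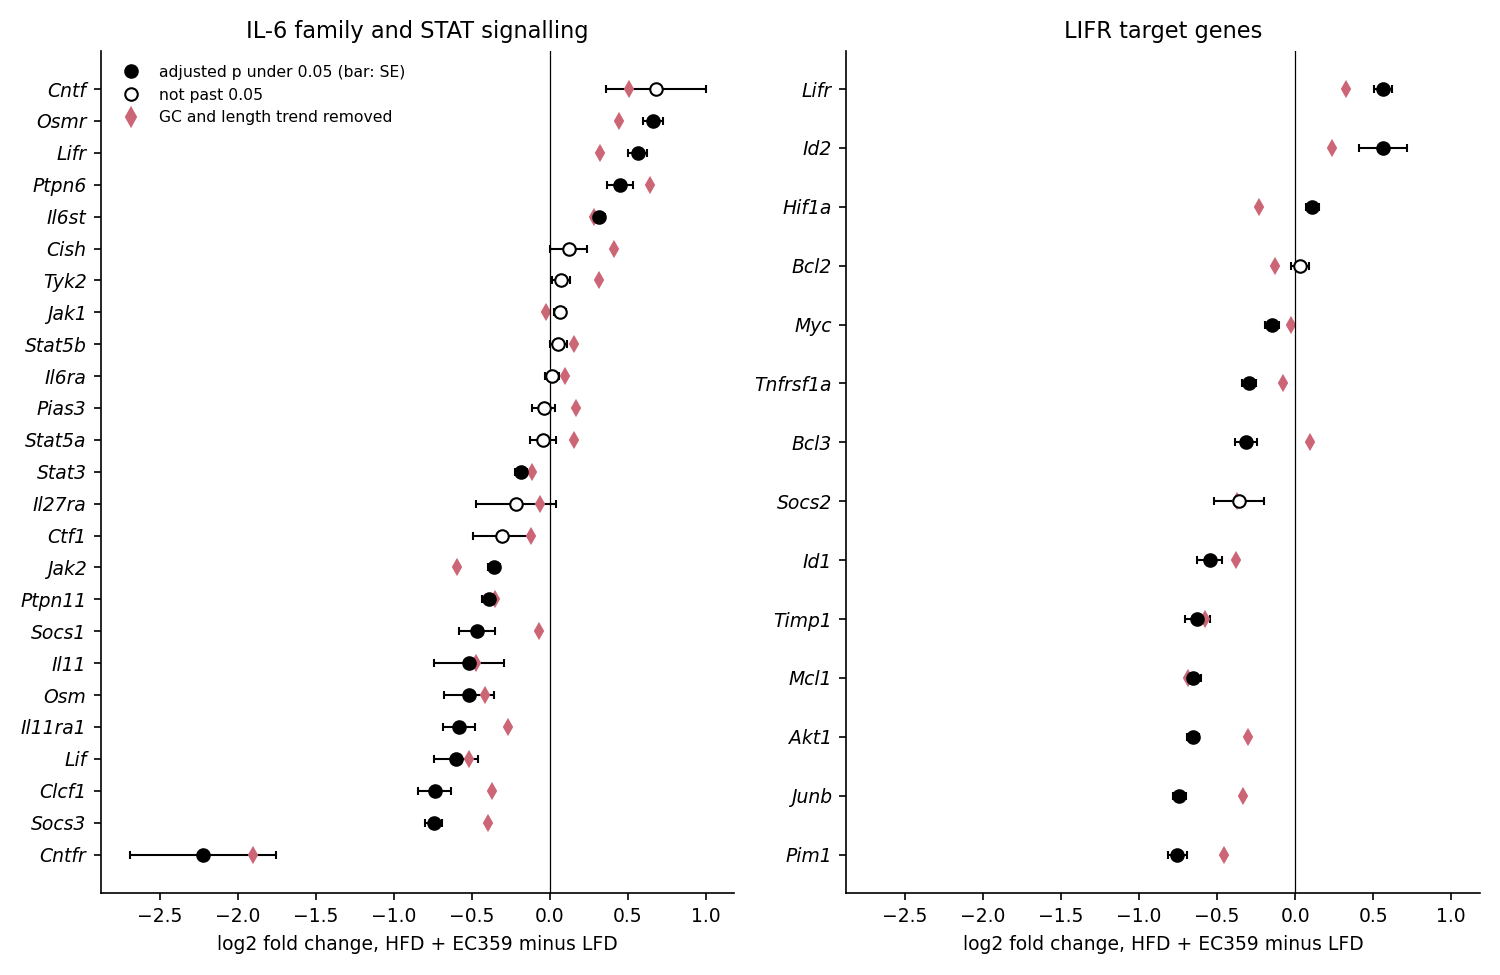
Log2 fold change (HFD + EC359 minus LFD, x axis) with its standard error for the tested and reported genes of the IL-6 family and LIFR target lists (y axis), as counted and after correction for GC content and length. Cntfr lies farthest left (log2 fold change -2.22), Lif (-0.60) and Socs3 (-0.74) lie left of 0, and Lifr (0.56), Osmr (0.66) and Il6st (0.31) lie right of 0 in both fits.

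MHC class II molecules display peptides from the lysosomal route to CD4 T cells, and their genes are switched on together by the coactivator CIITA, which acts through factors bound to the X and Y boxes just before each gene's start. The list held 13 genes, of which 10 were tested, and all 10 rose, with a median log2 fold change of 0.97 and 5 called. To show a promoter element known from this gene family, the stretches around the Y box core are printed. They come from 4 of 7 list members in the promoter table with the letters TGATTGG on either strand within 250 bases before the start. The list also holds Ctss and Ifi30, which do not encode class II chains. Sequences are from RefSeq (GRCm38.p6, a later build than the mm9 of the counts), 5′ to 3′ on the gene's own strand, with TGATTGG in capitals.
H2-Aa, chr17:34287852-34287943 (minus strand): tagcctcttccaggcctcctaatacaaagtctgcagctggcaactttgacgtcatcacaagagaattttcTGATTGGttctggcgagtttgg
H2-Eb1, chr17:34305736-34305827 (plus strand): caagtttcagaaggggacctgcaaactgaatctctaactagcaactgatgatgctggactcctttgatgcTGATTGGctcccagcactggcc
H2-DMb1, chr17:34153058-34153149 (plus strand): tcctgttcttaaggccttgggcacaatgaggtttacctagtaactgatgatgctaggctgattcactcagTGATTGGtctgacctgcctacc
H2-DMb2, chr17:34145087-34145178 (plus strand): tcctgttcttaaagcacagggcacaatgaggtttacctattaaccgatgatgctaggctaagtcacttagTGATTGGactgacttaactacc
The capitals end between 44 bases before the start in H2-Aa and 86 bases before it in H2-DMb2. The same letters occur in 2375 of the 32851 promoters of the table (7.23%), and H2-DMa, Ctss and Ifi30 hold none in this window. H2-Ab1, Cd74 and Ciita have no entry in the table.

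H2-Aa, the class II alpha chain (chr17:34419696-34424716, mm9), was at 36.2, 45.4 and 47.2 CPM in the 3 LFD libraries and 131, 130.1 and 126 CPM in the 3 HFD + EC359 libraries. The lowest HFD + EC359 library lay far above the highest LFD library, a 2.98-fold difference (log2 fold change 1.57, SE 0.068, edgeR adjusted p = 7.35e-19). HFD libraries were at 58.5, 67.1 and 61.7 CPM, between the other groups. The invariant chain Cd74, which guides class II molecules through the cell, was at 323 ± 1.9 against 658 ± 7.56 CPM (log2 fold change 1.03, SE 0.034, edgeR adjusted p = 7.14e-22). H2-DMb1 and H2-DMb2, chains of the peptide-loading molecule, rose with log2 fold changes of 1.31 and 1.15, and as near-identical copies they share reads, so their values are not independent. Ctss, the protease that trims the invariant chain, rose too (0.56). Of genes taken up after their values were seen, the coactivator Ciita was at 23.9, 24.5 and 24.9 CPM in LFD and 43.5, 48.4 and 45.7 CPM in HFD + EC359 (log2 fold change 0.91, SE 0.088, edgeR adjusted p = 1.48e-10), H2-Ab1 at 86.5 ± 5.36 against 161 ± 4.99 CPM (0.89) and H2-Eb1 at 64.5 ± 3.48 against 138 ± 2.63 CPM (1.09). In HFD these were at 24.8 ± 1.16 CPM for Ciita, 89.2 ± 3.9 CPM for H2-Ab1 and 76.8 ± 4.35 CPM for H2-Eb1. With the GC and length trend removed all 10 again rose, 8 were called and the median was 1.14.

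**Figure D3:**
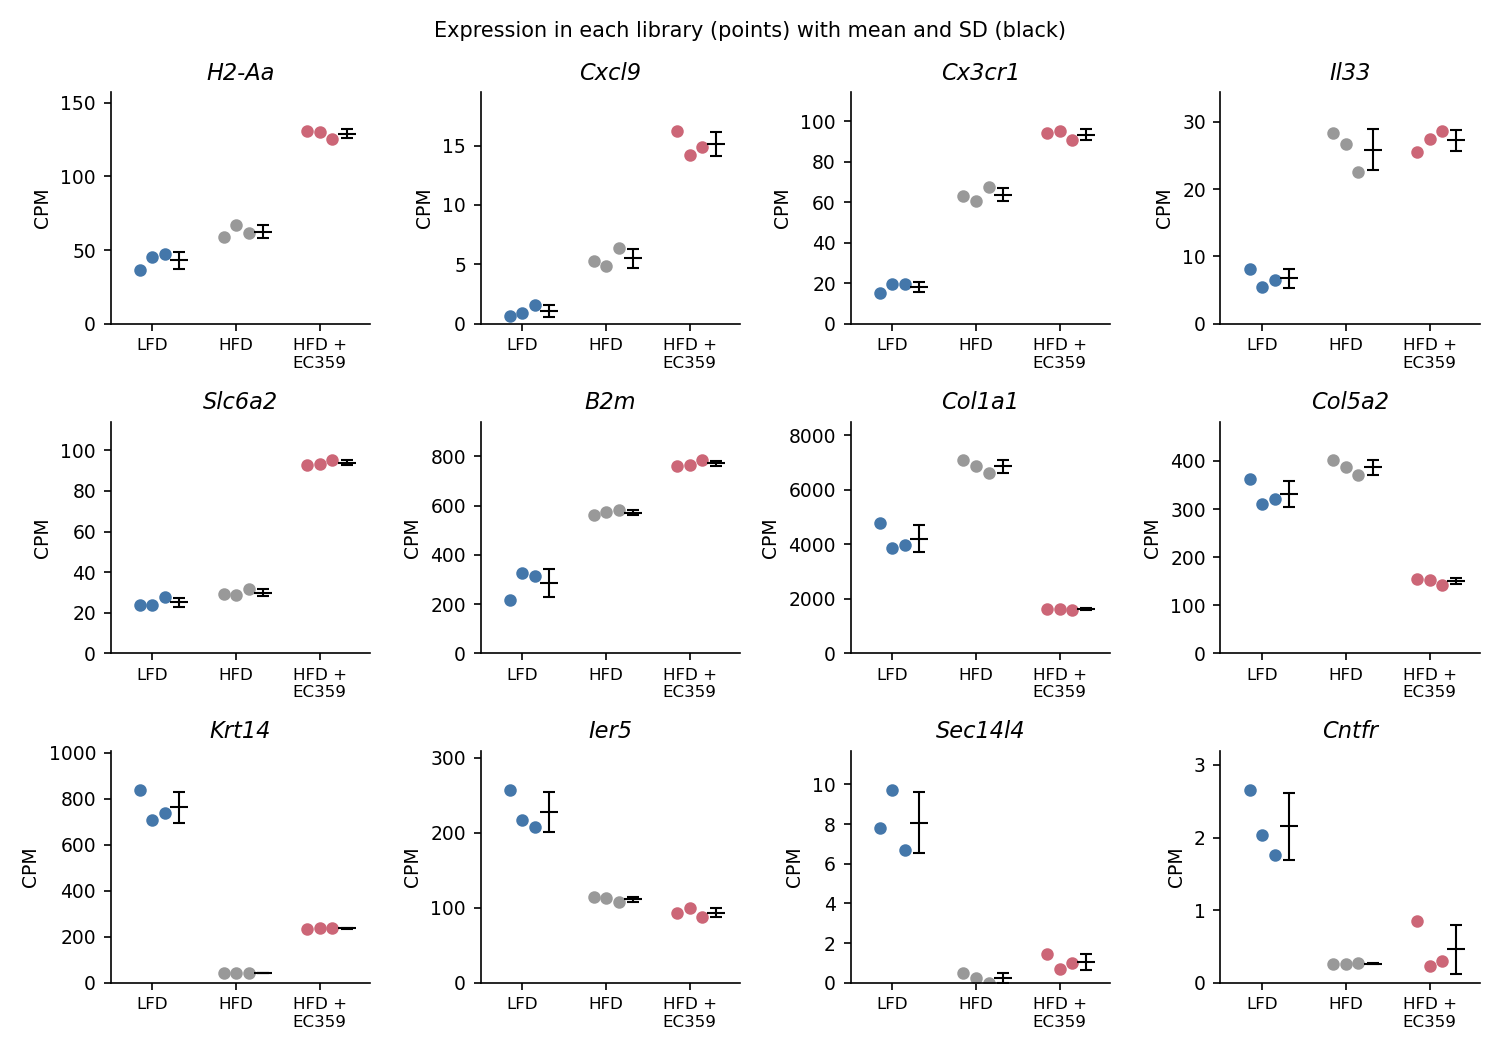
CPM (y axes, linear and starting at 0) of 12 genes in each library of LFD, HFD and HFD + EC359 (x axes), with 1 point per library and the mean ± SD in black. H2-Aa, Cxcl9 and Cx3cr1 are highest in HFD + EC359, Slc6a2 is at 25.1 and 29.9 CPM in LFD and HFD and 93.8 CPM in HFD + EC359, Il33 is at 25.9 and 27.2 CPM in HFD and HFD + EC359, and Col1a1 is lowest in HFD + EC359 although highest in HFD.

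The chemokine list, with 32 of 39 genes tested, held 20 genes that rose and 4 that fell (median 0.46). Cx3cr1, the fractalkine receptor of monocytes and macrophages, was at 15.3, 19.8 and 19.6 CPM in the 3 LFD libraries and 94.4, 95.3 and 90.5 CPM in the 3 HFD + EC359 libraries. These groups did not overlap (log2 fold change 2.34, SE 0.082, edgeR adjusted p = 2.69e-21). Ccl2, which attracts monocytes, was at 78.1 ± 8.88 against 138 ± 4.7 CPM (0.81) and Cxcl16 rose slightly (0.17), but not with DESeq2 or without LFD replicate 3 or HFD + EC359 replicate 3. Cx3cl1, the ligand of Cx3cr1 and taken up after its value was seen, rose too, 21 ± 3.99 against 35.3 ± 2.02 CPM (0.73). Ccl5 was called as well (0.578 ± 0.436 against 1.71 ± 0.342 CPM, 1.53), but its 3 LFD libraries were near the floor of counts and the call was lost without LFD replicate 1 or 2, HFD replicate 2 or any 1 of the HFD + EC359 replicates (log2 fold change 1.19 to 2.23 with 1 library left out, highest without LFD replicate 3). In the fit corrected for GC content and length, 14 chemokine genes rose and 6 fell, with a median of 0.24.

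Of 19 complement genes tested, 12 rose and the other 7 did not pass the test. C1qa, a C1q chain made by macrophages, was at 236 ± 9.23 against 267 ± 4.96 CPM (0.18) and C3, the central component, at 218 ± 11.7 against 249 ± 5.37 CPM (0.19). C3ar1, the C3a receptor, was called (1.04) but not without LFD replicate 1, where its log2 fold change was 0.88. With the trend removed, 13 rose, and C3ar1 (0.76) did not stay above a 2-fold change.

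The interferon-stimulated genes did not move one way. Of 40 tested, 16 rose and 12 fell, 4 being called in each direction. Iigp1, an interferon-inducible GTPase, was at 4.09, 10 and 10.8 CPM in the 3 LFD libraries and 31.3, 36.6 and 33.5 CPM in the 3 HFD + EC359 libraries (log2 fold change 1.98, SE 0.15, edgeR adjusted p = 5.40e-13). No LFD library reached the HFD + EC359 range. Usp18, which removes ISG15 from proteins, was at 16.2, 12.7 and 10 CPM in LFD and 5.34, 3.72 and 4.2 CPM in HFD + EC359 (log2 fold change -1.54, SE 0.18, edgeR adjusted p = 9.68e-09), the opposite direction, again without overlap. Irf1 (0.073) and Ifitm3 (0.023) did not pass the test. The members were also grouped after their values were seen. All 8 interferon-inducible GTPases (Gbp, Irgm1, Igtp, Ifi47 and Iigp1 genes) rose, by log2 fold changes of 0.68 to 1.98, and their summed level was 148.9 to 180.6 CPM in LFD and 344.1 to 364.4 CPM in HFD + EC359. Of the 14 Ifit, Isg15, Mx, Oas, Rsad2, Usp18 and Cmpk2 genes, 10 fell and the other 4 did not pass. The summed level of these 14 was 201.8 to 217.5 CPM in LFD and 136.8 to 152.9 CPM in HFD + EC359. Once the trend had been removed 16 of the 40 again rose and 12 fell, and the medians were 0.86 for the GTPases and -0.57 for the other group, beside 0.94 and -0.75 as counted.

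MHC class I presentation was mixed as well. B2m, the light chain of class I molecules, was at 218, 325 and 313 CPM in the 3 LFD libraries and 763, 767 and 785 CPM in the 3 HFD + EC359 libraries, without overlap (log2 fold change 1.43, SE 0.066, edgeR adjusted p = 3.76e-18), and the trimming peptidase Erap1 rose (0.73). Of the 27 tested members 6 rose and 11 fell, among them Tapbp (-0.54), Psmb10 (-0.54) and H2-D1 (-0.19), whose reads may be shared with other class I genes. After removal of the trend 8 rose and 6 fell, B2m stayed called (1.05) and H2-D1 had a log2 fold change of -0.00091. NF-kB and inflammasome cytokine genes held 9 that rose and 14 that fell of 33 tested. Il33, an alarmin of stromal and epithelial cells, was called higher at 6.73 ± 1.36 against 27.2 ± 1.56 CPM (log2 fold change 2.04, SE 0.14, edgeR adjusted p = 4.88e-14), and the endothelial adhesion molecule Sele was lower (-1.70), a call that was lost without LFD replicate 2 or HFD + EC359 replicate 2 or 3 (-1.87 to -1.51 with 1 library left out). After correction for the trend 7 genes of this list rose and 13 fell.

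The macrophage marker list moved with these immune genes. Of its 17 members 16 were tested, 11 rose and 3 fell, Marco had no count, and the summed level was 2579 to 2648 CPM in LFD, 2573 to 2587 CPM in HFD and 3083 to 3112 CPM in HFD + EC359. Apoe, a lipid carrier abundant in macrophages, was at 603 ± 35.9 against 837 ± 9.28 CPM (0.47), and Mrc1, the mannose receptor, was at 567 ± 24.8 against 599.5 ± 5.98 CPM, which did not pass (0.079, adjusted p = 0.0516 by edgeR). Members named after their values were seen included Lyve1 (2.21), Emr1 (0.90), Cd68 (0.95) and Csf1r (0.41), which rose, and Arg1 (-0.93) and Cd163 (-0.55), which fell. Neutrophil markers summed to 127.5 to 150.5 CPM in LFD and 199 to 205.3 CPM in HFD + EC359, with 6 of 11 tested members higher. The T and NK cell list summed to 30.14 to 35.6 CPM and 31.26 to 35.79 CPM, with 1 of 11 tested members higher, Cd8a (1.41, named after its value was seen). Cd8a was called as counted, but its call was lost with the trend removed and in at least 1 fit with 1 library left out. The dendritic cell list, of which 6 of 10 were tested, summed to 781.3 to 792 CPM and 587.2 to 601.7 CPM and held 1 member that rose, Itgax (0.83), and 2 that fell. Fscn1 made up most of both sums, at 727 ± 5.3 against 509 ± 6.13 CPM (-0.52, and -0.14 with the trend removed). The sums therefore largely follow this gene and not the list as a set. With the trend removed 11 macrophage markers rose and 3 fell, the same numbers as counted, but Mrc1 was then among those that fell. In that fit 4 neutrophil markers and 1 of T and NK cells rose, and 1 dendritic cell marker rose and 2 fell. The part of the number of macrophages in the class II, complement and chemokine results was not tested.

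Mast cell and endothelial markers also differed, and the sum of the adipocyte markers differed mainly by Fabp4. The mast cell list summed to 204 to 225.3 CPM in LFD, 95.33 to 99.03 CPM in HFD and 248.5 to 254.5 CPM in HFD + EC359, and of 12 tested members 6 rose and 3 fell. Kit, the stem cell factor receptor, was called higher (10.7 ± 2.04 against 24.4 ± 3.06 CPM, 1.16) and the protease Tpsab1 rose (37.4 ± 3.93 against 63.3 ± 1.84 CPM), while Hdc, which makes histamine, fell (-0.52). The endothelial list summed to 656.5 to 673.5 CPM and 793.9 to 833.2 CPM, with 6 of 14 members higher and 3 lower, and Cdh5, the cadherin of endothelial junctions, was at 52.4, 52.3 and 52.7 CPM in the 3 LFD libraries and 105, 111 and 106 CPM in the 3 HFD + EC359 libraries. This difference was called (log2 fold change 1.03, SE 0.058, edgeR adjusted p = 4.35e-16), and Pecam1 rose as well (0.71). The adipocyte list summed to 49.92 to 52.9 CPM in LFD and 67.09 to 71.43 CPM in HFD + EC359, with Fabp4, a fatty acid binding protein, at 6.21 ± 1.24 against 19.4 ± 1.88 CPM (1.62), and 6 of its 13 members, Adipoq and Lep among them, had too few counts to test. As counted, 3 of the 7 tested rose and 1 fell. In the fit corrected for GC content and length 10 of the 14 endothelial markers rose and the other 4 did not pass, 4 of the 7 adipocyte markers rose and the other 3 did not pass, and the mast cell counts were again 6 and 3.

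**Figure D4:**
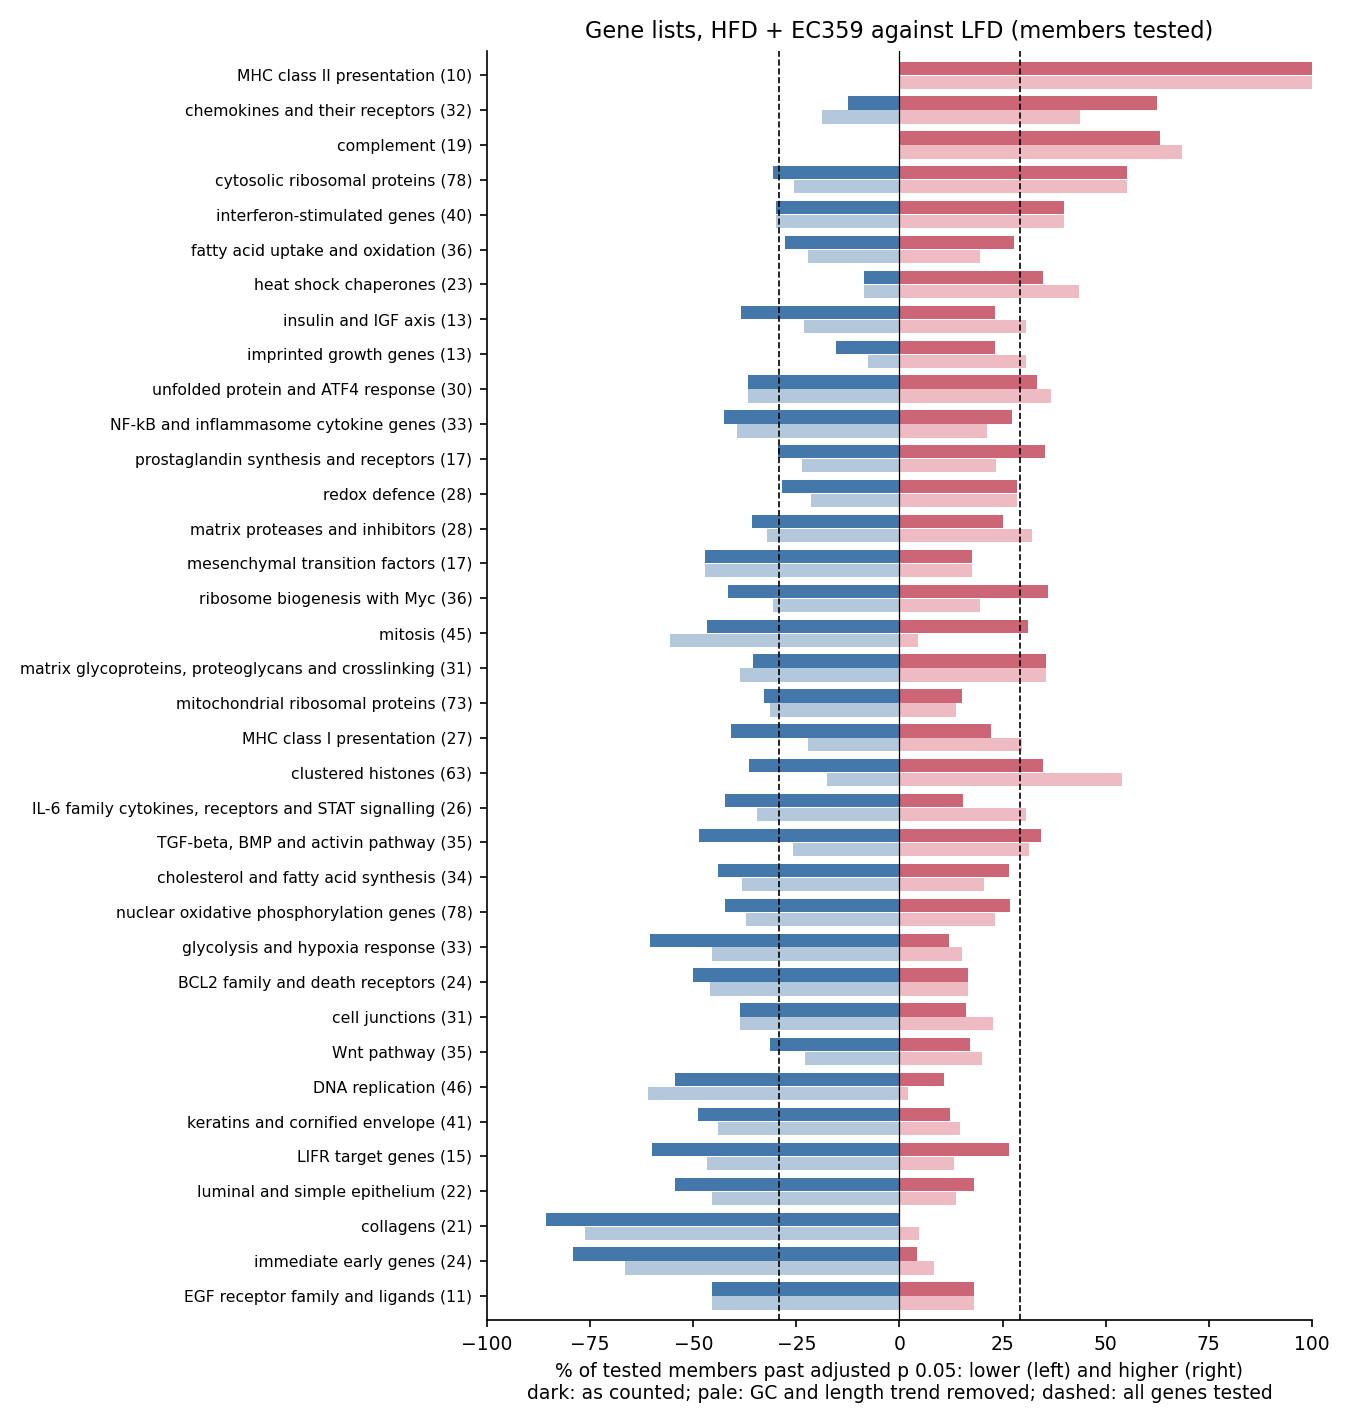
Percentage of tested members of each gene list that were higher (right) or lower (left) in HFD + EC359 than in LFD at an adjusted p-value under 0.05, in dark bars as counted and in pale bars after correction for GC content and length. Dashed lines mark the 29.2% and 29.1% over all tested genes. MHC class II presentation reaches 10 of 10 to the right, and collagens 18 of 21 and immediate early genes 19 of 24 to the left.

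Most collagens were lower. Of 21 tested, 18 fell, 6 of them by a called difference, the other 3 did not pass, and the median log2 fold change was -0.51. Col1a1, the alpha 1 chain of type I collagen and the product of fibroblasts above all (chr11:94797584-94813170, mm9), was at 4794, 3873 and 3968 CPM in the 3 LFD libraries and 1630.0, 1633 and 1575 CPM in the 3 HFD + EC359 libraries. The groups lay well apart, LFD being 2.61-fold higher (log2 fold change -1.38, SE 0.045, edgeR adjusted p = 3.97e-22). Its partner chain Col1a2 was at 1915 ± 215 against 781 ± 18.8 CPM (log2 fold change -1.29, SE 0.044, edgeR adjusted p = 1.40e-21). In HFD both were higher than in LFD, at 6870.2 ± 232 CPM and 3263 ± 81.4 CPM (log2 fold changes of HFD minus LFD 0.71 and 0.77), so the HFD + EC359 libraries lay on the far side of LFD. Col5a2, which sets the width of collagen fibrils together with type V chains, was at 363, 311 and 321 CPM in LFD and 154, 153 and 143 CPM in HFD + EC359 (log2 fold change -1.14, SE 0.049, edgeR adjusted p = 4.59e-19). Col7a1, the anchoring fibril collagen whose gene overlaps another on the same strand, was at 1178 ± 113 against 453 ± 4.95 CPM (-1.38), and the basement membrane chain Col4a1 was at 1974 ± 127 against 1476 ± 16.5 CPM (-0.42). Col11a1 was called lower too (-1.69), but its libraries overlapped and the call was lost without LFD replicate 1 or 2 or HFD + EC359 replicate 2 or 3 (-2.15 to -1.34 with 1 library left out). With the GC and length trend removed, 16 collagens fell and 1 rose, the median was -0.31, Col1a2 (-1.10) and Col5a2 (-1.17) stayed called, and Col1a1 (-0.99) fell just short of a 2-fold change.

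Other matrix genes went both ways, beside 29.2% that rose and 29.1% that fell over all tested genes. Of 31 glycoproteins, proteoglycans and crosslinking enzymes tested, 11 rose and 11 fell (11 and 12 with the trend removed). Tnc, tenascin C of the tumor stroma, was at 448, 427 and 437 CPM in the 3 LFD libraries and 189, 193 and 191 CPM in the 3 HFD + EC359 libraries (log2 fold change -1.20, SE 0.038, edgeR adjusted p = 3.27e-22), without overlap. Dcn, the proteoglycan decorin, was at 21.7, 32.5 and 27.7 CPM in LFD and 66.2, 73.1 and 70.5 CPM in HFD + EC359 (log2 fold change 1.34, SE 0.089, edgeR adjusted p = 2.61e-14), and Fn1, fibronectin, was at 3992 ± 141 against 5252 ± 59.8 CPM (0.40). Fbln2 fell (-0.54). Among 28 matrix proteases and inhibitors, 7 rose and 10 fell (9 and 9 with the trend removed). Mmp12, the elastase of macrophages, was at 25.8 ± 5.6 against 60.1 ± 1.77 CPM (1.20) as counted, and its log2 fold change was 0.80 with the trend removed, where its call was lost. Fibroblast markers summed to 6103 to 7391 CPM in LFD, 10440 to 11000 CPM in HFD and 2983 to 3064 CPM in HFD + EC359. Left without Col1a1 and Col1a2, a step chosen after the values were seen, they summed to 437 to 468.3 CPM in LFD and 634.5 to 645.3 CPM in HFD + EC359, with 4 of 10 members higher and 1 lower. The other fibroblast markers were thus higher in sum where the type I collagens were lower.

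Many keratins and other squamous epithelial genes were lower than in LFD, at levels above those in HFD for the named keratins that fell. Of 41 genes of the keratin and cornified envelope list tested, 20 fell and 5 rose, with 7 called lower and 3 higher, and the median was -0.28, beside -2.83 for HFD minus LFD. Krt14, the basal keratin, was at 839, 707 and 739 CPM in the 3 LFD libraries and 233, 239 and 238 CPM in the 3 HFD + EC359 libraries (log2 fold change -1.68, SE 0.045, edgeR adjusted p = 3.57e-24). No library of one group reached the other, and HFD libraries were at 40.6, 40.3 and 40.9 CPM, a log2 fold change of HFD + EC359 minus HFD of 2.54 (edgeR adjusted p = 8.13e-27). Krt16, a keratin of stressed epidermis, was at 335 ± 44 against 131 ± 1.92 CPM (-1.35) with 9.44 ± 1.58 CPM in HFD, and Krt79 at 80.6 ± 1.38 against 28.2 ± 0.804 CPM (-1.51) with 4.92 ± 1.26 CPM in HFD. Krt5, the partner of Krt14, fell as well (-0.82). Krt77, a keratin of sweat ducts and skin, went the other way at 1.85 ± 0.606 against 9.43 ± 0.841 CPM (log2 fold change 2.35, SE 0.23, edgeR adjusted p = 1.88e-10). The epidermis marker list summed to 1177 to 1344 CPM in LFD, 213 to 229 CPM in HFD and 605 to 610.6 CPM in HFD + EC359. Krt14 made up most of the LFD sum. Of 13 tested members of this list 3 rose, 4 fell and 6 did not pass, with a median of -0.031 (4 rose and 5 fell with the trend removed). The part of skin in the tumor samples in these results was not tested. In the fit corrected for GC content and length 18 genes of the list fell and 6 rose, and Krt14 (-1.41), Krt16 (-1.14), Krt79 (-1.29) and Krt77 (2.55) stayed called.

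More genes of simple epithelium fell than rose, and those of cell junctions were mixed. Of 22 luminal and simple epithelial genes tested, 12 fell and 4 rose (median -0.48), and with the trend removed 10 fell and 3 rose. Krt8 and Krt18, the paired keratins of simple epithelium, were at 599 ± 13.7 against 443 ± 7.64 CPM (-0.44) and at 486 ± 11.4 against 304 ± 8.93 CPM (-0.68). Rab25, a GTPase of epithelial membrane traffic, was at 4.85 ± 0.78 against 2.5 ± 0.639 CPM (-0.95). Lcn2, an iron-binding protein of inflamed epithelium and neutrophils, was called higher, at 32.3, 43.6 and 43.4 CPM in LFD and 106, 108 and 118 CPM in HFD + EC359 (log2 fold change 1.46, SE 0.074, edgeR adjusted p = 3.80e-17), with 101 ± 5.58 CPM in HFD. Of 31 junction genes tested 12 fell, 5 rose and the other 14 did not pass (12 and 7 with the trend removed, median -0.18 as counted), with the desmosomal plaque gene Dsp at 232 ± 7.14 against 161 ± 6.32 CPM (-0.53), a fall of Cldn4 (-0.93) and a rise of Tjp1 (0.49). The carcinoma marker list summed to 1923 to 2036 CPM in LFD and 1110 to 1146 CPM in HFD + EC359, and to 1199 to 1226 CPM and 877.4 to 908.1 CPM without Krt14, with 5 of those 6 tested members lower. Of 17 mesenchymal transition genes 8 fell and 3 rose, with or without the trend, among them Vim, the mesenchymal filament protein (2899 ± 16.7 against 2167 ± 23.1 CPM, -0.42), Twist1 (-0.65) and Zeb2, which rose (0.70) and overlaps another gene on its strand.

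Immediate early genes, which are induced within minutes by growth factor and stress signals, were mostly lower. Of 24 tested, 19 fell, 3 of them by a called difference, with a median of -0.51. The one gene that rose, Egr1, named after its value was seen, was at 18.4 ± 2.27 against 22.1 ± 0.815 CPM (0.27), and it no longer passed without LFD replicate 1 or 2 or HFD + EC359 replicate 2 or 3, which left 0 genes that rose. Ier5 was at 258, 217 and 208 CPM in the 3 LFD libraries and 92.9, 99.3 and 88.1 CPM in the 3 HFD + EC359 libraries (log2 fold change -1.28, SE 0.059, edgeR adjusted p = 2.75e-18), without overlap. Jund was at 504, 408 and 426 CPM in LFD and 193, 205 and 193 CPM in HFD + EC359 (log2 fold change -1.17, SE 0.053, edgeR adjusted p = 2.01e-18) and Fosb at 23 ± 4.35 against 10.2 ± 0.803 CPM (-1.16). HFD lay nearer to HFD + EC359 than to LFD in these genes, at 112 ± 3.49 CPM for Ier5, 244 ± 12.4 CPM for Jund and 11.6 ± 1.1 CPM for Fosb. With the trend removed 16 fell and 2 rose, the median was -0.33, Ier5 stayed called (-1.22), and Jund (-0.75) and Fosb (-0.96) did not reach a 2-fold change.

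More DNA replication genes fell than rose. Of 46 tested, 25 fell and 5 rose (3 without LFD replicate 1 or without HFD + EC359 replicate 3), each by less than 2-fold, and the median was -0.27. Gmnn, the replication licensing inhibitor, was at 22.6 ± 0.741 against 13 ± 1.76 CPM (log2 fold change -0.80, SE 0.12, edgeR adjusted p = 1.07e-06), Rpa2 at 44.1 ± 0.887 against 27.1 ± 0.713 CPM (-0.70) and Mcm7, a helicase subunit, at 181 ± 9.99 against 146 ± 3.71 CPM (-0.31). Of 45 mitosis genes, 21 fell and 14 rose as counted. Aurka and Aurkb, the mitotic kinases, fell (-0.85 and -0.67), and Top2a did not pass (462 ± 35 against 481 ± 0.565 CPM, 0.058). Once the trend had been removed 28 replication genes fell and 1 rose, and 25 mitosis genes fell and 2 rose.

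Histone genes split by type as counted. Of 63 clustered histone genes tested 22 rose and 23 fell, 16 being called higher and 1 lower. Hist1h2bm was at 5.52, 15.2 and 12.5 CPM in the 3 LFD libraries and 60.9, 51.8 and 55 CPM in the 3 HFD + EC359 libraries (log2 fold change 2.28, SE 0.14, edgeR adjusted p = 5.59e-15), with HFD libraries at 40.9, 49 and 48 CPM. Hist1h2be (16.9 ± 4.54 against 74.5 ± 4.11 CPM, 2.11) and Hist1h2bn (10.9 ± 2.51 against 37.4 ± 5.58 CPM, 1.76) were called too, whereas the linker histone Hist1h1c (630.3 ± 28.9 against 463 ± 11.3 CPM, -0.44) and Hist1h4d (-0.53) fell. Grouped after the values were seen, all 14 tested H2B genes of the Hist1 cluster were called higher, with log2 fold changes of 1.08 to 2.28 and a summed level of 191.7 to 331.7 CPM in LFD and 717.2 to 791.8 CPM in HFD + EC359. Of 13 H4 genes 1 rose and 10 fell, and of 5 H1 genes 3 fell. H2A genes held 5 that rose and 6 that fell of 17, and H3 genes 2 and 4 of 12. Most histone mRNAs lack a poly(A) tail, the libraries were prepared with an mRNA kit, and the genes of a type are near-identical copies between which reads were shared as fractions, so single members are uncertain. After removal of the trend the median of the H2B genes was 1.55, beside 1.23 as counted, and of the 63 genes 34 rose and 11 fell. The H4 median became -0.083, beside -0.42 as counted, and the H1 median -0.28, beside -0.37. Those of H2A and H3 changed sign, from -0.12 to 0.32 and from -0.19 to 0.21.

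Of 78 cytosolic ribosomal protein genes 43 rose and 24 fell, the median being 0.15. The abundant Rpsa (-0.37) and Rps3 (1016 ± 45.4 against 655 ± 28.6 CPM, -0.63) fell, and Rpl31 rose by close to the 2-fold threshold (1.003), where its call was lost when LFD replicate 1 was left out, and likewise for HFD replicate 3 and for HFD + EC359 replicate 3 (0.92 to 1.06 with 1 library left out). Its call was also lost with the trend removed (0.82), as with DESeq2 or RLE size factors, while 43 genes of the list again rose and 20 fell. These genes have many processed copies, so reads may be shared. Of 78 nuclear genes of oxidative phosphorylation 21 rose and 33 fell, with Atp5b, the catalytic subunit of ATP synthase, at 1007 ± 21.4 against 741 ± 1.48 CPM (-0.44), and Cox7b, a small subunit of cytochrome oxidase, at 9.23 ± 2.51 against 30 ± 0.256 CPM (log2 fold change 1.67, SE 0.13, edgeR adjusted p = 5.32e-13). Mitochondrial ribosomal proteins held 11 that rose, Mrps36 (1.87) and Mrpl42 (1.46) among them, and 24 that fell, of 73. In ribosome biogenesis 13 rose and 15 fell of 36, Nop10, a small protein of box H/ACA particles, being called higher (4.73 ± 1.31 against 17.5 ± 0.217 CPM, 1.85). The numbers that rose and fell with the trend removed were 18 and 29 for oxidative phosphorylation, 10 and 23 for mitochondrial ribosomal proteins, and 7 and 11 for ribosome biogenesis. Myc, the transcription factor that drives ribosome production, fell slightly (215 ± 11.5 against 194 ± 8.17 CPM, -0.15), and its log2 fold change of -0.023 with the trend removed did not pass.

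Genes of glycolysis and the hypoxia response were mostly lower. Of 33 tested 20 fell and 4 rose (2 without LFD replicate 2 or without HFD + EC359 replicate 1). Ndrg1, a gene induced by hypoxia, was at 1324, 1306 and 1329 CPM in LFD and 841, 845 and 859 CPM in HFD + EC359 (log2 fold change -0.64, SE 0.029, edgeR adjusted p = 2.47e-18). Pkm2, a pyruvate kinase gene counted without separation of its isoforms, was at 2441 ± 52.5 against 1684 ± 1.05 CPM (-0.54). Egln1, the oxygen-sensing hydroxylase, fell (-0.63), and Adm, which encodes the vessel-dilating peptide adrenomedullin, was called higher (6.05 ± 1.08 against 13.8 ± 1.43 CPM, 1.17). In the fit corrected for GC content and length 15 fell and 5 rose, and Eno1 (-0.17 as counted, 0.018 then) was among those that no longer passed.

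Lipid genes moved in both directions, and over all tested genes 29.2% rose and 29.1% fell. In the cholesterol and fatty acid synthesis list 9 of 34 rose and 15 fell. Scd1, the stearoyl-CoA desaturase, was at 169 ± 8.44 against 96.2 ± 4.04 CPM (-0.81) with 67.8 ± 2.96 CPM in HFD, Fasn, fatty acid synthase, was at 1108 ± 22.7 against 909 ± 12.5 CPM (-0.28, and -0.042 with the trend removed), and Sc5d, a late enzyme of cholesterol synthesis, was higher (1.03), a call that was lost without LFD replicate 1 or 3 (0.94 to 1.16 with 1 library left out) and with the trend removed (0.78). In that fit 7 genes of the list rose and 13 fell. In the list of fatty acid uptake and oxidation 10 rose (6 without HFD + EC359 replicate 2, and 17 with library totals alone as scaling) and 10 fell of 36. As counted, both were near the shares over all tested genes. The uptake genes Fabp4 (1.62) and Cd36 (4.53 ± 0.92 against 11.7 ± 1.42 CPM, 1.34) were called, and Ucp2, a mitochondrial carrier, rose (193 ± 4.12 against 259 ± 4.72 CPM, 0.42). With the trend removed Cd36 had a log2 fold change of 0.91, short of 2-fold, Fabp4 stayed called (1.33), and 7 genes of the uptake and oxidation list rose and 8 fell.

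Growth factor lists held 0 or 1 called gene each. Shares called were 0% (TGF-beta), 2.86% (Wnt) and 7.69 to 9.09% (the others), beside 5.09% of all tested genes. In the TGF-beta, BMP and activin list 12 rose and 17 fell of 35, with Bmpr2 (0.84) and Tgfbr1 (0.79) higher and Bmp1 (-0.56), the processing protease of procollagen, and Grem1 (-0.80) lower. Once the trend had been removed 11 rose and 9 fell. In the Wnt list 6 rose and 11 fell of 35, the ligand Wnt11 being called lower at 1.92 ± 0.281 against 0.526 ± 0.176 CPM (log2 fold change -1.88, SE 0.45, edgeR adjusted p = 6.15e-04) and Lef1 being higher (0.74). After the correction 7 of these rose and 8 fell. Of 11 EGF receptor family genes 5 fell and 2 rose (1 without LFD replicate 1 or 3 or HFD + EC359 replicate 2 or 3). Among those that fell, the ligands Areg (15.8 ± 3 against 8.52 ± 1.13 CPM, -0.91) and Hbegf (52.8 ± 3.75 against 26.4 ± 0.205 CPM, -1.001) and the receptor Erbb3 (-0.95) lay near the 2-fold threshold, and the call of Hbegf was lost without LFD replicate 3 or HFD + EC359 replicate 2 (-1.04 to -0.95 with 1 library left out), with library totals alone and with the trend removed (-0.99), where again 5 of the family fell and 2 rose. Of 13 insulin and IGF axis genes 5 fell and 3 rose, with Igf1 at 8.47 ± 2.56 against 19.7 ± 0.385 CPM (log2 fold change 1.19, SE 0.14, edgeR adjusted p = 1.34e-08) and Igfbp4 at 5465 ± 645 against 3494 ± 70.6 CPM (-0.64). The call of Igf1 was lost with the trend removed (0.73), where 4 genes of the axis rose and 3 fell. Of the imprinted growth genes 3 rose and 2 fell of 13 (1 fell without LFD replicate 2), Grb10 (0.82) and Mest (0.52) being among the higher ones. The third, Cdkn1c, had 9 counts over the LFD libraries, which overlapped those of HFD + EC359, and its log2 fold change of 1.29 did not pass with DESeq2 or without LFD replicate 1 or 3 or HFD + EC359 replicate 1 or 3 (0.89 to 2.15 with 1 library left out, highest without LFD replicate 2). Of the lower ones, Dio3 had 16 and 5 counts in LFD and HFD + EC359, and its call (-2.25) was lost with DESeq2, with the trend removed, and without LFD replicate 2 or HFD + EC359 replicate 2 or 3 (-2.54 to -1.77 with 1 library left out). Gnas fell as counted (-0.23) and rose with the trend removed (0.088), where 4 of the 13 rose and 1 fell.

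Stress and survival genes were mixed, as were all tested genes (29.2% rose and 29.1% fell). In the unfolded protein and ATF4 response list 10 rose (6 without LFD replicate 2 or without HFD + EC359 replicate 3) and 11 fell of 30. Dnajb9, a chaperone of the endoplasmic reticulum, was at 6.64 ± 0.435 against 17.4 ± 1.4 CPM (1.38), Phgdh, the first enzyme of serine synthesis, at 270.3 ± 8.53 against 141 ± 3.07 CPM (-0.94), and Hspa5, the main chaperone of that compartment, did not pass (777 ± 19.8 against 752 ± 4.13 CPM). The call of Dnajb9 was lost with the trend removed (0.92), and 11 genes of the list rose and 11 fell. Of 23 heat shock chaperones 8 rose and 2 fell (10 and 2 with the trend removed). Hspa8, the constitutive cytosolic chaperone, was at 532, 655 and 641 CPM in LFD and 1059, 1119 and 1114 CPM in HFD + EC359 (log2 fold change 0.85, SE 0.046, edgeR adjusted p = 1.51e-16), and overlaps another gene on its strand. Of 28 redox genes 8 rose and 8 fell (8 and 6 with the trend removed), with the regulator Nfe2l2 at 57.9 ± 4.64 against 104 ± 1.71 CPM (0.84) and the cystine transporter Slc7a11 higher as well (0.76). Of 24 BCL2 family and death receptor genes 12 fell and 4 rose. Bok, a proapoptotic member, was at 138 ± 12.1 against 63.6 ± 3.87 CPM (log2 fold change -1.11, SE 0.061, edgeR adjusted p = 2.50e-16), the anti-apoptotic Mcl1 at 512 ± 53.2 against 325 ± 12 CPM (-0.65), and Bcl2a1a, another survival member with near-identical copies, was higher at 0.674 ± 0.303 against 2.37 ± 0.157 CPM (1.83). After the correction 11 of the family fell and 4 rose, and Bok no longer reached a 2-fold change (-0.75). Of 17 prostaglandin genes 6 rose and 5 fell (4 and 4 with the trend removed), with Hpgds, the synthase of prostaglandin D2 in mast cells and macrophages, called higher at 6.55 ± 1.45 against 17.1 ± 0.963 CPM (log2 fold change 1.36, SE 0.15, edgeR adjusted p = 3.44e-09) and Tbxas1, the thromboxane synthase, as well (1.57).

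The HFD vehicle libraries show at which level the genes that remained different from LFD were without EC359. The comparisons share the LFD and HFD + EC359 libraries, so the values are given side by side. In the same fit 763 genes were called between HFD and LFD, 405 higher and 358 lower in HFD, and 459 between HFD + EC359 and HFD. The called genes with the largest difference from LFD that lay within 0.25 (log2) of HFD were taken as a fixed set of 6 in each direction. On the higher side they were Bmp5, Lilra5, Bcl2a1b, Il33, Fam70a and Hist1h2bn. Il33 was at 8.18, 5.49 and 6.52 CPM in LFD and 25.6, 27.4 and 28.7 CPM in HFD + EC359 with 28.4, 26.7 and 22.5 CPM in HFD, and its log2 fold changes were 2.04 for HFD + EC359 minus LFD, 1.97 for HFD minus LFD and 0.075 for HFD + EC359 minus HFD. Lilra5, an activating receptor of myeloid cells, was at 0.46 ± 0.25 against 2.96 ± 0.989 CPM with 2.67 ± 0.954 CPM in HFD (log2 fold change 2.63, SE 0.48, edgeR adjusted p = 1.81e-05). On the lower side they were Kcnh1, Lass4, Ptprcap, H2-T3, Mir5119 and Smoc2. Lass4, a ceramide synthase, was at 15.8, 16.2 and 15.9 CPM in LFD and 4.61, 5.3 and 4.6 CPM in HFD + EC359 with 4.04, 5.37 and 3.82 CPM in HFD (log2 fold change -1.72, SE 0.16, edgeR adjusted p = 3.99e-11). Smoc2, a matrix protein that binds calcium, was at 4.81 ± 0.989 against 1.82 ± 0.232 CPM with 1.93 ± 0.273 CPM in HFD. Of these 12, the call of H2-T3 was lost with DESeq2 and without LFD replicate 2 or HFD + EC359 replicate 3 (-1.89 to -1.06 with 1 library left out).

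Other genes differed from LFD in HFD + EC359 while HFD lay within 0.25 (log2) of LFD. On the higher side these were Slc6a2, Slc38a3, Dnase1l3, BC064078, 1300002K09Rik and Plbd1. Slc6a2, the noradrenaline transporter, was at 23.7, 24 and 27.7 CPM in the 3 LFD libraries and 92.9, 93.4 and 95.2 CPM in the 3 HFD + EC359 libraries. HFD libraries, at 29.1, 28.7 and 31.8 CPM, lay close to LFD, and the rise in HFD + EC359 was 3.73-fold (log2 fold change 1.90, SE 0.076, edgeR adjusted p = 9.85e-20). Slc38a3, a glutamine transporter, was at 1.59 ± 0.915 against 5.96 ± 0.25 CPM (1.89) and Dnase1l3, a secreted nuclease of macrophages and dendritic cells, at 9.78 ± 2.54 against 28.7 ± 3.58 CPM (log2 fold change 1.52, SE 0.14, edgeR adjusted p = 2.48e-11). On the lower side they included Rasal1, Pkp2, Cd209d, Col5a2 and Pard3b. Pkp2, a desmosomal plaque gene, was at 2.36 ± 0.55 against 0.888 ± 0.602 CPM (-1.40). Col5a2 was at 387 ± 15.3 CPM in HFD, where its log2 fold change from LFD was 0.22. Some of these calls rested on single libraries. That of BC064078 was lost without LFD replicate 1 or 2 or HFD + EC359 replicate 1 or 2 (log2 fold change 1.14 to 1.90 with 1 library left out), that of Cd209d without LFD replicate 1 or 2 or HFD + EC359 replicate 1 or 3 (-1.44 to -1.22), and that of Rasal1 without LFD replicate 2 or any 1 HFD + EC359 replicate (-1.61 to -1.13). Pkp2 was lost without LFD replicate 2 or 3, without HFD replicate 3 and without HFD + EC359 replicate 1 or 3 (-2.07 to -1.14, farthest from 0 without HFD + EC359 replicate 2), and Pard3b without LFD replicate 2 or 3 or any 1 HFD + EC359 replicate (-1.20 to -0.81). With the trend removed Slc6a2 (1.88), Dnase1l3 (1.49) and Col5a2 (-1.17) stayed called, whereas the calls of BC064078 (1.34) and Rasal1 (-1.08) were lost, and that of Pkp2 was lost when the replicate block was added. The calls of BC064078, Cd209d, Rasal1, Pkp2 and Pard3b were also lost with DESeq2.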

How the data were processed

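RNA-seq had been done on 9 libraries of 4T1 tumors, 3 each from LFD, HFD and HFD + EC359, and groups were taken from the library titles. Per the file headers, the authors had made the deposited expected counts with featureCounts 1.5.0-p1 on mm9 gene annotation, as paired fragments in exons, counted by strand, with fragments that matched several places or genes shared as fractions. Paralogs and overlapping genes therefore share counts. The submitters' processing notes name bcl2fastq and HISAT2 2.1.0, whereas the methods of the paper name TopHat2, HTSeq and DESeq, and the difference could not be settled here. Values that were not whole made up 1.19 to 3.55% of genes per library and were rounded, with values midway rounded up.

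Genes with low counts were removed with filterByExpr by group, which left 13366 of 22609. All 9 libraries were scaled by TMM and fitted with group as the only term by the quasi-likelihood test of edgeR 4.0.16 (limma 3.58.1, R 4.3.3), so that the 3 groups share 1 estimate of the spread. The common biological coefficient of variation was 3.63%. P-values were adjusted by the Benjamini-Hochberg method over all tested genes. Permuting 6 libraries in groups of 3 cannot give an exact two-sided p under 0.1, so single values were not tested in that way. GC content and length were computed from the exons of the mm9 annotation in the files and the mm9 genome for 22549 genes, and in the fit with the trend removed a spline of 5 degrees of freedom in each was subtracted from every library as an offset. On simulated counts for this comparison (13213 genes tested), 193 of 200 genes changed 3-fold were called and 0 of the unchanged ones. The simulated libraries held no GC or length trend, so this does not cover calls that arise from such a trend. The smallest level considered measurable was 3 counts. These limits cover counting error only.

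The groups, gene lists and tests were chosen with earlier results of these data known. Genes were named by rule: the 10 called genes in each direction with the largest log2 fold change, no overlap and at least 2 CPM; in each list the 2 with the highest level and the 3 with the largest change past 0.05; the 6 in each direction within 0.25 (log2) of HFD, and of LFD; each member of the IL-6 family and LIFR target lists; and the 2 most abundant markers of each cell type. A few genes that the rule picked are not reported here. Other names are stated as chosen after their values were seen. Alternatives were DESeq2 1.42.0, other scalings and filters, the 6 libraries alone, a replicate block, removal of the GC and length trends, thinning to the smallest total, a stricter fold, and leaving out each library.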

Additional observations from a re-analysis of the deposited data

How the results depend on the processing

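Beside the 680 called genes, counts within 1.5 times of this were found with DESeq2 (572), RLE size factors (673), library totals alone (757), each gene with at least 1 count (736), the 6 libraries alone (658) and thinning to the smallest total (648). With at least 10 counts in every library, 418 were called (305 higher and 113 lower), since fewer genes were tested, and with a fold over 4 there were 55. With the GC trend removed, 432 were called (311 higher, 121 lower), and with the GC and length trends removed also 432 (314 higher, 118 lower). Library totals alone moved the split of calls from 489 higher and 191 lower to 619 and 138, and that at an adjusted p-value under 0.05 from 3900 and 3887 to 4676 and 3149, while the median of all genes went from 0.0107 to 0.0853. DESeq2 gave 6687 genes at that threshold. With 1 library left out, 602 (without LFD replicate 1) to 742 (without LFD replicate 2) genes were called, 419 to 533 higher and 177 to 209 lower, and 7088 to 7736 passed 0.05, 3474 to 3862 higher and 3614 to 3928 lower.

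Deviations of same-numbered LFD and HFD + EC359 libraries from their group means correlated at 0.000841, -0.0297 and -0.00536 across genes. They thus showed no shared deviation, which does not settle whether same-numbered libraries were handled together. With the replicate block 676 genes were called (484 higher, 192 lower) and 7773 passed 0.05. With the block and the GC and length trends removed, 426 were called (309 higher, 117 lower).

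Of 5153 comparisons of a named gene with an alternative, 34 reversed, each under removal of the GC trend, of the GC and length trends, or of both with the replicate block. In that order the log2 fold changes were -0.022, -0.026 and -0.025 for Acsl4; 0.095, 0.099 and 0.099 for Bcl3; 0.10, 0.10 and 0.10 for Csf1; 0.011, 0.018 and 0.019 for Eno1; 0.096, 0.088 and 0.088 for Gnas; -0.24, -0.23 and -0.24 for Hif1a; 0.10, 0.10 and 0.10 for Lrp5; 0.012, 0.00040 and 0.00052 for Ltbp2; -0.20, -0.19 and -0.19 for Mrc1; -0.097, -0.12 and -0.12 for Ncl; and -0.22, -0.22 and -0.22 for Top2a. Fasn was at 0.0032 with the GC trend alone removed. The cause was not tested. The other comparisons gave 4910 in the same direction and on the same side of the threshold, 111 that no longer passed, 53 that newly passed and 45 in which a value that had not passed changed sign. Of counts over gene lists, 74 moved by over 1.5 times. Depth limits genes near 3 counts per library (0.308 to 0.59 CPM).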

Other observations

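Marker lists of further cell types gave smaller or mixed differences. Of 11 tested pericyte and smooth muscle markers 4 rose and 5 fell, and their sum was 604.4 to 614.4 CPM in LFD and 619.7 to 629.2 CPM in HFD + EC359. Mcam was at 93.3 ± 2.16 against 109.5 ± 0.972 CPM (0.23) and Pdgfrb, the PDGF receptor of these cells, at 282 ± 3.17 against 330.3 ± 4.58 CPM (0.23). Erythroid markers, with the alpha globins Hba-a1 and Hba-a2 that share reads, summed to 162.5 to 171.1 CPM and 188.9 to 199.2 CPM, with 264.8 to 290.5 CPM in HFD. Skeletal muscle markers summed to 131.8 to 144 CPM and 121.7 to 129.7 CPM, with Acta1 at 41.2 ± 4.83 against 31.1 ± 2.9 CPM and Myh1, a fast myosin, at 27.9 ± 3.5 against 36.7 ± 1.26 CPM. Schwann cell and nerve markers summed to 97.96 to 112.3 CPM and 83.19 to 91.96 CPM. Of 4 tested lymphatic endothelial markers 1 rose, and the sums were 21.48 to 25.43 CPM and 27.5 to 33.36 CPM. Only 2 of 12 B and plasma cell genes were tested, Igj (0.229 ± 0.272 against 0.788 ± 0.263 CPM) and Sdc1 (234 ± 9.63 against 147 ± 4.11 CPM). The hair follicle list had 5 of 13 genes without a count in the 6 libraries and summed to 1.41 to 2.355 CPM and 0.6065 to 1.128 CPM.

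A2m, the protease inhibitor alpha-2-macroglobulin, had 0 counts over the 3 LFD libraries and 3, 1 and 4 in the HFD + EC359 libraries, whose mean level of 0.292 CPM lay under 3 counts per LFD library (0.461 to 0.59 CPM), so no fold is given. In HFD it was at 4.62 ± 0.887 CPM, with 5.42, 3.67 and 4.77 CPM in the 3 libraries.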
